A study of Homo sapiens with 6 samples.

Results

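Iron enters, rests in and leaves a cell through a short chain of proteins, and 8 genes of that chain were followed here: TFRC and SLC11A2 for uptake, FTH1, FTL and NCOA4 for storage, SLC40A1 and CP for export, and IREB2 for control. They were chosen by gene symbol, and each matched 1 of the 60611 genes in the count table. RNA was sequenced from EndoC-BH5, an established human pancreatic beta-cell line whose genotype is labelled WT, in 6 libraries. The cytokine group held 3 libraries from cells given interferon gamma with interleukin 1 beta, and the vehicle group held 3 libraries from cells given vehicle. A line is 1 genetic source, and the sources used here give neither cytokine dose nor duration. The design text speaks of 3 batches per group without saying whether each was grown apart, so the p-values cover only the variation among these libraries, possibly technical.

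A cell takes up iron bound to transferrin through the transferrin receptor, moves it from the endosome to the cytosol, stores the surplus inside ferritin shells and exports the rest through ferroportin. Iron regulatory proteins bind hairpins called iron-responsive elements when iron is scarce. Binding near the start of a ferritin or ferroportin transcript blocks its translation, and binding in the tail of the TFRC transcript protects it from decay. Beta cells need iron for mitochondrial enzymes, and these cells are known to be sensitive to iron overload. The data are RNA levels, so translation and protein were not measured.

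The elements themselves are shown because a match to 1 strict pattern is what 4 of the 8 genes share in sequence. In the GENCODE 29 transcripts of the 8 genes, 101 in number, a search for a C, any 5 bases, the loop CAGTG with any base, and 5 bases able to pair with the first 5 found 7 elements in 4 genes. Each is printed 5′ to 3′ with 6 flanking bases on either side, and the capitals mark the 6-base loop.
FTH1, 5′ UTR, chr11:61967574-61967602, minus strand: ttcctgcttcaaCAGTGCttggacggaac
FTL, 5′ UTR, chr19:48965335-48965363, plus strand: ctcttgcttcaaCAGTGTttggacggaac
SLC40A1, 5′ UTR, chr2:189580661-189580689, minus strand: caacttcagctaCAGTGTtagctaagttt
TFRC, 3′ UTR, chr3:196050979-196051007, minus strand: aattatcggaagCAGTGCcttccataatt
TFRC, 3′ UTR, chr3:196050575-196050603, minus strand: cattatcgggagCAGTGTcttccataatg
TFRC, 3′ UTR, chr3:196050510-196050538, minus strand: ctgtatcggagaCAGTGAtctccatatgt
TFRC, 3′ UTR, chr3:196050463-196050491, minus strand: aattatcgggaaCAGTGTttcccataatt
Coordinates are GRCh38. The elements of FTH1 and FTL were identical in 26 of 29 bases, while the FTH1 and SLC40A1 elements shared 13 of 29. The element was held by 10 of 12 FTH1 transcripts, by the 1 FTL transcript, by 3 of 7 SLC40A1 transcripts and by 3 of 15 TFRC transcripts. No match was found in the 34 transcripts of SLC11A2 or in those of CP, IREB2 and NCOA4, which says only that this strict pattern was not there. SLC11A2 is nevertheless in the list, used further below, of transcripts known to carry an element. Elements that depart from the pattern would be missed in any of the 8 genes, including those with a match. Of the transcripts that hold the element, 1 of the 10 of FTH1 and 2 of the 3 of SLC40A1 have no annotated coding sequence, so the SLC40A1 element is in an annotated 5′ UTR in 1 transcript.

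**Figure D1:**
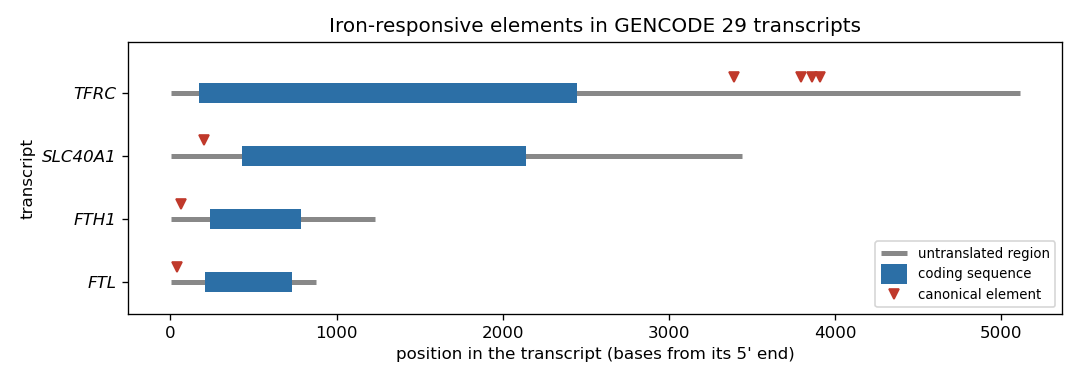
Position of each element found with the strict pattern (triangle) along 1 annotated transcript of TFRC, SLC40A1, FTH1 and FTL. Positions are in bases from the transcript's 5′ end, with the coding sequence as a thick bar and untranslated regions as a thin line. The single elements found in SLC40A1, FTH1 and FTL begin at bases 205, 65 and 41, before the coding sequence. The 4 found in TFRC lie after it, from base 3394 to base 3910.

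Total counts ranged from 13689972 to 16175364 in cytokine libraries and from 5871481 to 15894082 in vehicle libraries. All 10 listed beta-cell markers passed the filter on low counts, and their summed level was 13694 to 14334 CPM in cytokine libraries and 9993 to 10642 CPM in vehicle libraries. The higher sum with cytokines came mainly from IAPP, at 8238 CPM in cytokine and 3998 CPM in vehicle libraries. INS stood at 3641 and 4012 CPM. Of the 10 markers, 3 passed the test higher, IAPP at 2.06-fold, PCSK1 at 1.67-fold and NKX6-1 at 1.08-fold. The other 7 passed lower, among them INS at 0.907-fold, SLC30A8 at 0.464-fold and MAFA at 0.270-fold. The groups overlapped in INS, and MAFA had only 17 to 24 counts in the cytokine libraries. Here CPM is the count relative to a TMM-adjusted library size, which takes account of depth and composition. The 7 listed immune markers summed to 23.6 to 25.1 CPM in cytokine and 8.42 to 8.54 CPM in vehicle libraries, of which CD68 gave 21.4 and 5.14 CPM on average, and the 7 fibroblast and endothelial markers to 12.5 to 14.0 and 3.22 to 4.80 CPM, of which PDGFRB gave 12.1 and 2.93 CPM. The leukocyte marker PTPRC stood at 0.117 and 0.131 CPM in cytokine and vehicle libraries. The 6 alpha, delta and PP cell markers summed to 621 to 657 CPM in cytokine and 601 to 671 CPM in vehicle libraries, of which SST gave 568 and 555 CPM, with GCG lower at 0.578-fold and IRX2 higher at 1.54-fold (edgeR, adjusted p = 1.2e-11 and 1.5e-07). The 7 acinar and ductal markers summed to 136 to 146 and 157 to 174 CPM, of which KRT19 gave 135 and 161 CPM, with PRSS1 at 0 in all libraries and CELA3A at no more than 0.5 counts. The part of other cell types in the results below was not tested.

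Of the 8 genes, 7 passed the filter and were tested. SLC11A2 rose with cytokines, TFRC, FTL and NCOA4 fell, and FTH1, SLC40A1 and IREB2 did not pass (edgeR quasi-likelihood test, adjusted p under 0.05 over 17847 genes). CP was too low to test. In bulk RNA, fewer cells of a type and less RNA per cell cannot be told apart. Among all genes tested, 57.1% were called, 28.3% higher and 28.8% lower, so 4 of 7 is near the share of any genes in this comparison. The groups did not overlap in 4 of the 7 genes, against 61.1% of all genes tested. Scaling by library size alone moved the median of all genes by -0.20 on the log2 scale, which turned the 5057 higher and 5142 lower calls into 2980 and 8779. Under it the 7 genes gave 1 higher and 5 lower, so the calls of the small changes below depend on the scaling.

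**Figure D2:**
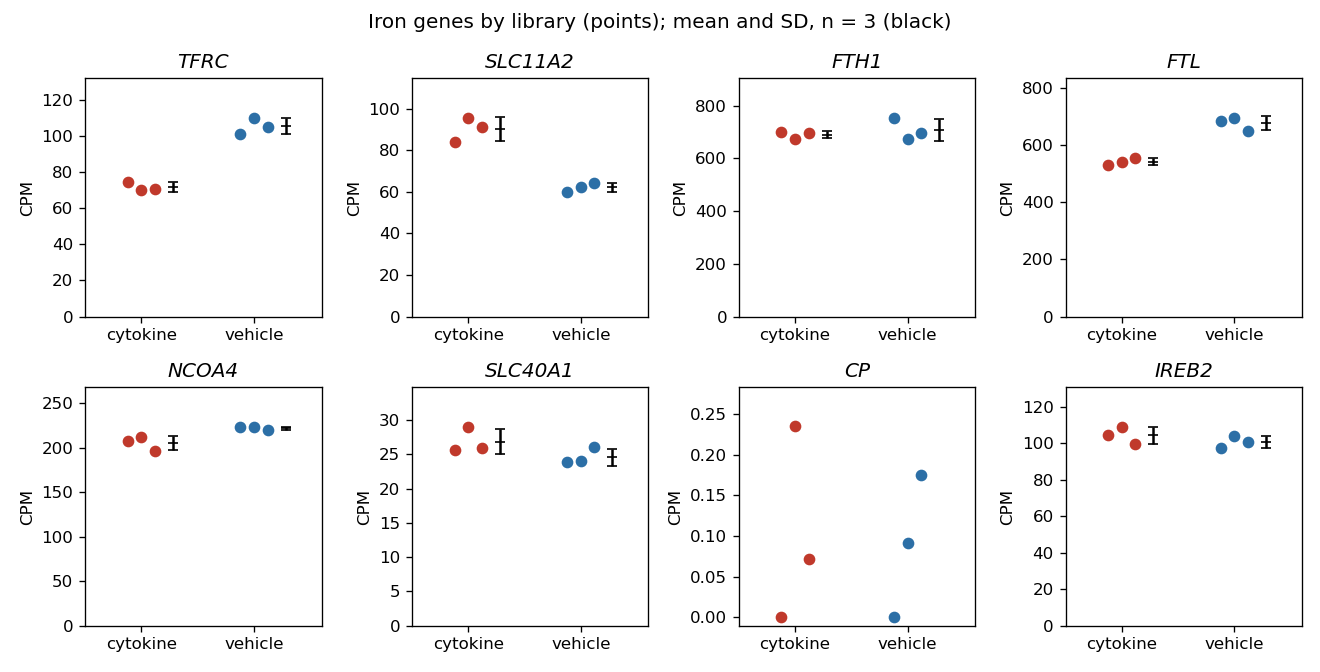
CPM of each of the 8 genes in the 3 cytokine and 3 vehicle libraries (points), with the mean and SD in black except for CP, where no mean is drawn. TFRC and FTL lie lower and SLC11A2 higher in every cytokine library, NCOA4 is lower by a narrow margin, and FTH1, SLC40A1, IREB2 and CP overlap.

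Uptake genes moved in opposite directions. TFRC encodes transferrin receptor 1, the main entry point of transferrin-bound iron, and lies on chromosome 3 at 196027183 to 196082189 on the minus strand. Its level was 74.7, 70.1 and 70.6 CPM in the cytokine libraries, against 101, 110 and 105 CPM in the vehicle libraries. Every cytokine library was lower than every vehicle library. As the log2 fold change of cytokine over vehicle, the difference was -0.56 with a standard error (SE) of 0.050 (edgeR, adjusted p = 8.8e-11), or 0.680-fold. Its direction and call held under all 13 alternatives, from -0.76 with library size alone to -0.52.

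SLC11A2 encodes DMT1, which carries ferrous iron across the endosomal membrane into the cytosol, and lies on chromosome 12 at 50979401 to 51028566 on the minus strand. It had 83.7, 95.4 and 91.1 CPM in the cytokine libraries, against 59.7, 62.2 and 64.3 CPM in the vehicle libraries. The groups did not overlap, and the cytokine libraries were the more spread. SLC11A2 gave a log2 fold change of 0.53 with SE 0.055 (edgeR, adjusted p = 2.2e-09), or 1.44-fold, and stayed between 0.32 and 0.59 under the 13 alternatives. TFRC and SLC11A2 changed by similar sizes, and 25.02% and 26.8% of all genes tested differed by more in either direction. The counts do not separate SLC11A2 transcripts by their tails.

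Promoters of 6 of the 8 genes were in the RefSeq promoter table (GRCh38.p14, 250 bases before to 50 after a start site), and those of FTH1 and CP were not. The 6 genes have 11 promoters there, 4 of them of SLC11A2. A gene was counted if any of its promoters held a pattern, while the percentages are shares of single promoters, so the 2 are not like for like. The interferon-stimulated response element, GAAA, any 2 bases and GAAA on either strand, was found in SLC11A2 alone, at 1 of its 4 annotated start sites, and 3.57% of all 35116 promoters hold it. The site was picked for display after SLC11A2 was seen to rise, and a link between the site and the rise was not tested. It is printed in the gene's own direction, with the match on the other strand in capitals.
SLC11A2, chr12:51028876-51028905, minus strand: gtttttttccTTTCTTTTTCttttccatca
The match begins 9 bases before that start site. The window of that start site, 51028837 to 51029136, lies upstream of the GENCODE 29 extent of SLC11A2 given above. Whether that start site is used in these cells was not tested. The gamma-activated sequence TTCNNNGAA was in none of the 6 genes and in 7.66% of all promoters. The NF-kappaB pattern, GGG, any 5 bases and CC, was in 4 of the 6, IREB2, SLC11A2, SLC40A1 and TFRC, and in 58.7% of all promoters. The antioxidant response pattern TGACNNNGC was in NCOA4 and in 13.3% of all promoters. These matches are letters in a window, not measured binding.

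Storage genes did not move together. Ferritin is a shell of heavy chains, which oxidise iron, and light chains, which help the mineral core to form. FTL, the light chain, lies on chromosome 19 at 48965301 to 48966878 on the plus strand. It had 531, 538 and 553 CPM in the cytokine libraries, against 683, 693 and 647 CPM in the vehicle libraries. The groups did not overlap. FTL gave a log2 fold change of -0.32 with SE 0.039 (edgeR, adjusted p = 5.5e-08), or 0.802-fold, and the call held under all 15 alternatives, from -0.52 to -0.29.

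FTH1, the heavy chain, lies on chromosome 11 at 61959718 to 61967660 on the minus strand. It had 699, 675 and 695 CPM in the cytokine libraries, against 753, 673 and 696 CPM in the vehicle libraries. The ranges overlapped, with vehicle replicate 1 above all others. The log2 fold change was -0.033 with SE 0.041 and a 95% interval from -0.11 to 0.047 (edgeR, adjusted p = 0.510). The sign turned without vehicle replicate 1, to 0.017 (edgeR, adjusted p = 0.762), and with library size alone it was -0.24 and passed (edgeR, adjusted p = 1.2e-05).

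FTH1 and FTL have many processed pseudogenes, so their reads can be split by the counting. The 25 matched FTH1 pseudogene rows summed to 0.198% to 0.246% of the FTH1 count in cytokine libraries and 0.184% to 0.269% in vehicle libraries. The 16 FTL pseudogene rows summed to 0.498% to 0.621% and 0.136% to 0.233% of FTL. Adding them changed neither call, though reads discarded for mapping to several places cannot be seen in these counts. BEST1, on the opposite strand, overlaps FTH1 and averaged 4.24 CPM in cytokine and 2.80 CPM in vehicle libraries, far below FTH1.

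NCOA4 encodes the receptor that delivers ferritin to autophagy so that its iron is released, and lies on chromosome 10 at 46005088 to 46030714 on the minus strand. It had 208, 212 and 197 CPM in the cytokine libraries, against 223, 223 and 220 CPM in the vehicle libraries. The groups did not overlap, but the gap was narrow. The log2 fold change was -0.11 with SE 0.043 (edgeR, adjusted p = 0.027), or 0.926-fold. The call was lost with DESeq2 (adjusted p = 0.117), with no filter in edgeR (0.127), at a threshold of 0.01, without cytokine replicate 1 (0.0823) or 3 (0.168), and without vehicle replicate 1 (0.0739), 2 (0.0879) or 3 (0.0657). Its adjusted p lay between 2.0e-07 and 0.168 over the 13 alternatives. In the authors' deposited table NCOA4 had a log2 fold change of -0.10 and an FDR of 0.150, while TFRC, FTL and SLC11A2 had FDR values of 3.5e-24, 7.0e-10 and 7.0e-21.

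Export genes gave no call. SLC40A1 encodes ferroportin, the main known iron exporter of mammalian cells, and lies on chromosome 2 at 189560579 to 189583758 on the minus strand. It had 25.7, 29.004 and 25.9 CPM in the cytokine libraries, against 23.8, 24.0 and 26.0 CPM in the vehicle libraries. The ranges overlapped. The log2 fold change was 0.11 with SE 0.074 and a 95% interval from -0.037 to 0.25 (edgeR, adjusted p = 0.222), and it was -0.095 with library size alone (edgeR, adjusted p = 0.267).

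CP encodes ceruloplasmin, a copper enzyme that oxidises iron as it leaves the cell, and lies on chromosome 3 at 149162410 to 149222055 on the minus strand. It had 0, 3 and 1 counts in the cytokine libraries, against 0, 1 and 3 counts in the vehicle libraries. With 4 counts in each group the ratio of cytokine to vehicle was 0.825 with a 95% counting interval from 0.154 to 4.43. The 0 in cytokine replicate 1 allows up to 0.200 CPM and the 0 in vehicle replicate 1 up to 0.477 CPM, taking 3 counts as the limit. These intervals and limits cover counting error only. No change in CP was detectable at this depth. HPS3, on the opposite strand, overlaps CP and averaged 44.4 CPM in cytokine and 35.8 CPM in vehicle libraries.

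Control of the chain was represented by IREB2, which encodes iron regulatory protein 2, and which lies on chromosome 15 at 78437431 to 78501456 on the plus strand. Its level was 105, 109 and 99.4 CPM in the cytokine libraries, against 97.2, 104 and 101 CPM in the vehicle libraries. The ranges overlapped. The log2 fold change was 0.047 with SE 0.049 and a 95% interval from -0.049 to 0.14 (edgeR, adjusted p = 0.426). With library size alone it turned to -0.15 and passed (edgeR, adjusted p = 0.0062).

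**Figure D3:**
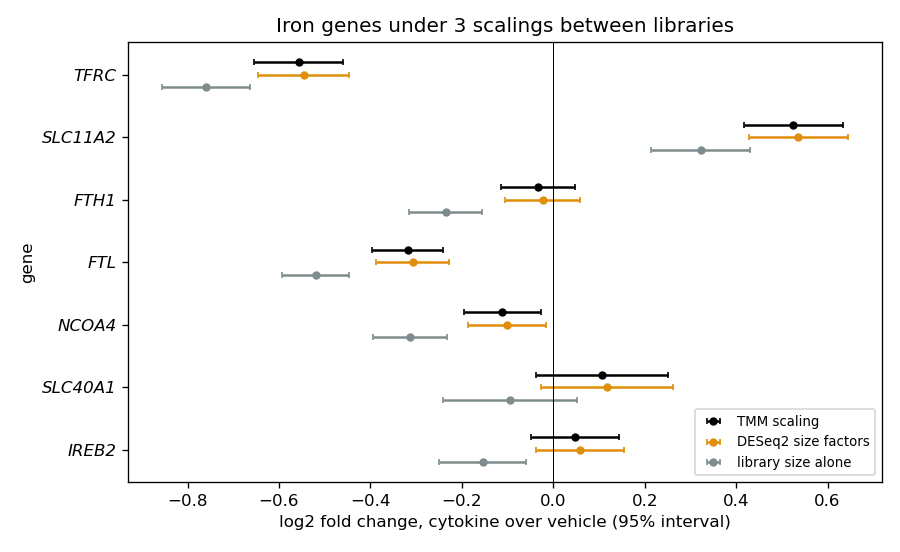
Log2 fold change of cytokine over vehicle with its 95% interval for the 7 tested genes, under TMM, DESeq2 size factors and library size alone. The intervals of TFRC, FTL and, by a narrow margin, NCOA4 stay below 0 under each scaling, and that of SLC11A2 stays above 0. All 7 genes shift by about the same amount to the left with library size alone, and IREB2 and SLC40A1 change sign.

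Ratios of 2 genes within a library do not depend on scaling between libraries, and 3 were computed. FTH1 over FTL was 1.32, 1.25 and 1.26 in the cytokine libraries, against 1.10, 0.971 and 1.08 in the vehicle libraries. All cytokine libraries were above all vehicle libraries, a log2 difference of 0.28. TFRC over FTH1 was 0.107, 0.104 and 0.102 in the cytokine libraries, against 0.134, 0.163 and 0.151 in the vehicle libraries. All cytokine libraries were below all vehicle libraries, a log2 difference of -0.52. SLC40A1 over TFRC was 0.344, 0.414 and 0.367 in the cytokine libraries, against 0.235, 0.218 and 0.248 in the vehicle libraries. Again the groups did not overlap, with a log2 difference of 0.68. Single genes did not overlap in 61.1% of those tested, and the share over pairs of genes was not computed. Each ratio sets TFRC or FTL, which fell, beside a gene that did not pass, so the ratios are not separate from those calls. Each of the 3 gave p = 0.1 in a two-sided exact permutation test, the smallest that 3 against 3 allows, so none can pass 0.05, alone or adjusted over the 3 (0.1 each).

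**Figure D4:**
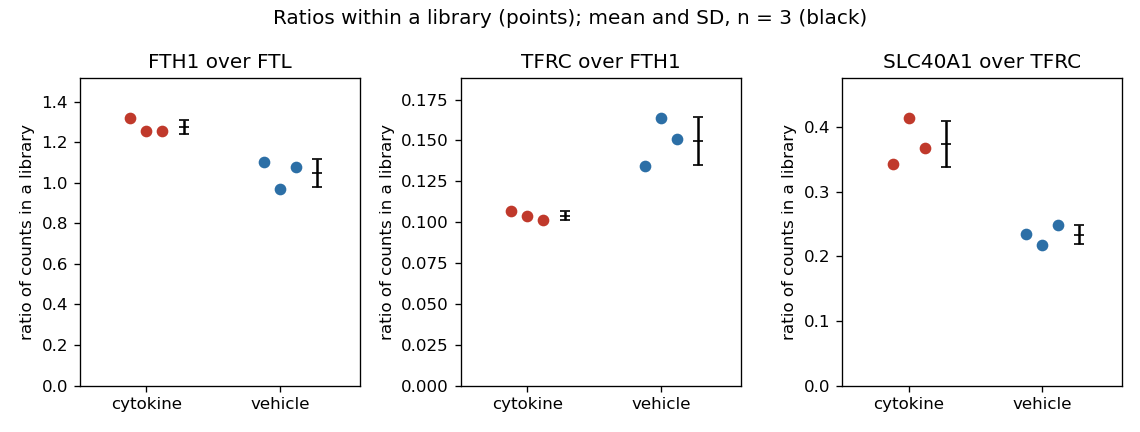
Ratio of the deposited counts of 2 genes within each library (points), with mean and SD over 3 libraries in black. In each of the 3 panels the cytokine libraries lie wholly on one side of the vehicle libraries, as they do for 61.1% of single genes tested.

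The ferritin chains had the highest levels per length. Divided by the summed exon length of each gene in kb, FTL stood at 616 ± 13.1 CPM per kb in cytokine and 768 ± 27.9 in vehicle libraries (SD, n = 3). FTH1 stood at 340 ± 6.28 and 348 ± 20.4 CPM per kb, and NCOA4 at 50.3 ± 1.93 and 54.4 ± 0.445. IREB2 stood at 9.65 ± 0.437 and 9.31 ± 0.301 CPM per kb. TFRC stood at 9.10 ± 0.319 in cytokine and 13.4 ± 0.559 in vehicle libraries, and SLC11A2 at 8.88 ± 0.582 and 6.12 ± 0.224. SLC40A1 was the lowest of the 7 at 6.21 ± 0.427 and 5.68 ± 0.283 CPM per kb. In cytokine libraries IREB2, TFRC and SLC11A2 overlapped with their neighbours in this order. In vehicle libraries TFRC stood clear above IREB2, and only SLC11A2 and SLC40A1 overlapped. The divisor matters for ferritin: FTL has 1 transcript, of 878 bases, which equals its summed exons, while the summed exons of FTH1 are 2030 bases and its transcript in the plot of element positions is 1229. Divided by that transcript's length, FTH1 stood at 561 ± 10.4 CPM per kb in cytokine and 576 ± 33.6 in vehicle libraries, still below FTL but by less. The TFRC transcript of that plot, of 5111 bases, likewise gave 14.0 ± 0.492 and 20.6 ± 0.862 CPM per kb, so the order of genes of close level depends on the length used.

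Among the tested genes with a symbol, those closest to each pattern were taken by the Euclidean distance of log2 CPM, centred per gene, over the 6 libraries. NEFL and NIPSNAP1 were nearest to TFRC, at distances of 0.068 and 0.072. ZNF213 and SMG9 were nearest to FTH1, at 0.036 and 0.041, and ZDHHC13 and RAB11FIP2 to SLC40A1, at 0.054 and 0.055.

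Other genes of iron handling were read from 9 lists, which hold 84 genes beside the 8. Of these, 66 were tested, of which 16 rose, 19 fell and 31 did not pass, with a median log2 change of -0.026 against -0.019 over all genes tested. The share called was 53.0%, near the 57.1% of all genes. By list it ran from 30% of the 20 mitochondrial genes to 100% of the 4 genes around the iron regulatory proteins. The list counts below stand beside 28.3% higher and 28.8% lower over all genes tested. The 18 untested genes had at most 13.7 counts in any library, and LCN2, FTMT, HJV and HP had 0 in all. Library size alone gave 9 higher and 37 lower among the 66. The groups did not overlap in 39 of the 66, against 61.1% of all genes tested. Of the 66, 26 are named below by a rule that takes the largest changes past the test.

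Of 4 tested genes of iron uptake and reduction beside TFRC and SLC11A2, 1 rose, 2 fell and 1 did not pass, and library size alone gave 0 higher and 2 lower. STEAP3, the ferrireductase that works beside DMT1 in the endosome, fell to 6.65 ± 1.12 CPM with cytokines, against 9.33 ± 0.226 CPM with vehicle, by 0.51 on the log2 scale (edgeR, adjusted p = 0.00078). SLC39A8, a zinc and iron importer, stood at 1.55 ± 0.240 CPM with cytokines and 2.73 ± 0.388 CPM with vehicle (edgeR, adjusted p = 0.0018), and its call was lost with DESeq2 (adjusted p = 0.0830). SLC39A14, a related importer, rose by 0.16 (edgeR, adjusted p = 0.0029), which turned to -0.044 with library size alone (edgeR, adjusted p = 0.377).

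Of 5 tested genes of storage and ferritin turnover beside the members, 2 rose, 1 fell and 2 did not pass, which library size alone turned to 0 higher and 3 lower. PCBP1, a chaperone that hands iron to ferritin, rose to 229 ± 5.67 CPM with cytokines, against 192 ± 14.2 CPM with vehicle (edgeR, adjusted p = 2.7e-05), a call lost with library size alone (adjusted p = 0.258). PCBP4 rose by 0.13 on the log2 scale (edgeR, adjusted p = 0.014), lost without vehicle replicate 3 (0.0727) and turned to -0.069 with library size alone. HERC2, a ubiquitin ligase that acts on NCOA4, fell by 0.29 on the log2 scale (edgeR, adjusted p = 1.3e-06).

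Of 4 genes of the iron regulatory proteins and their control beside IREB2, 3 rose and 1 fell, and library size alone gave 1 higher and 1 lower. FBXL5, the iron-sensing subunit of the ubiquitin ligase that marks iron regulatory protein 2 for breakdown, rose to 60.0 ± 1.74 CPM with cytokines, against 50.4 ± 0.428 CPM with vehicle (edgeR, adjusted p = 0.00024). CUL1, the scaffold of that ligase, rose 1.38-fold (edgeR, adjusted p = 2.4e-07), and its partner SKP1 rose by 0.15 on the log2 scale (edgeR, adjusted p = 0.012). ACO1, which encodes iron regulatory protein 1, fell by 0.20 on the log2 scale (edgeR, adjusted p = 0.011), a call lost with DESeq2 (0.168) and without vehicle replicate 3 (0.0709). With library size alone only CUL1 remained higher, and FBXL5 gave 0.050 (edgeR, adjusted p = 0.427).

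Of 3 tested genes of export and its hormonal control, 1 rose, 1 fell and 1 did not pass, and library size alone gave 1 higher and 2 lower. BMP2, a ligand that in liver signals for hepcidin, was 2.96-fold higher at 178 ± 7.84 CPM with cytokines and 60.1 ± 0.554 CPM with vehicle (edgeR, adjusted p = 1.4e-21). TMPRSS6, a protease that in liver dampens that signal, fell by 0.13 on the log2 scale (edgeR, adjusted p = 0.0089). The TMPRSS6 call was lost without cytokine replicate 1 (0.0808) or 2 (0.0604) and without vehicle replicate 3 (0.0684). HAMP, the hepcidin gene, was below the filter with at most 6 counts in a library.

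The list of transcripts known to carry an iron-responsive element holds TFRC, FTH1, FTL, SLC11A2 and SLC40A1 among others. Beside these members it gave 2 higher, 1 lower and 1 not past the test among 4. With library size alone it gave 1 higher and 1 lower. CDC14A, a phosphatase gene, rose 1.51-fold (edgeR, adjusted p = 1.8e-05), and CDC42BPA, a kinase gene, fell by 0.42 on the log2 scale (edgeR, adjusted p = 9.8e-08).

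Of 8 tested haem synthesis genes, 1 rose, 4 fell and 3 did not pass, with a median log2 change of -0.31. The share called was 62.5%, near the 57.1% of all genes tested. With library size alone 1 rose and 7 fell. ALAD, an early enzyme of the pathway, fell to 56.6 ± 3.97 CPM with cytokines, against 92.3 ± 1.93 CPM with vehicle (edgeR, adjusted p = 3.4e-12), and PPOX, a late one, fell by 0.79 on the log2 scale (edgeR, adjusted p = 5.4e-08). UROS, an enzyme between them, rose 1.38-fold (edgeR, adjusted p = 3.3e-08). Of 9 tested genes of haem breakdown and transport, 1 rose, 5 fell and 3 did not pass, with a median of -0.32. The share called was 66.7%, against the same 57.1%. With library size alone 1 of the 9 rose and 6 fell. ABCG2, which exports porphyrins among other substrates, fell to 1.41 ± 0.409 CPM with cytokines, against 6.33 ± 0.348 CPM with vehicle (edgeR, adjusted p = 3.8e-11). The haem transporter SLC48A1 fell by 0.66 on the log2 scale (edgeR, adjusted p = 2.6e-06), and BLVRA, a biliverdin reductase, rose 1.68-fold (edgeR, adjusted p = 9.7e-09).

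In the list of mitochondrial iron and iron-sulphur cluster assembly, 14 of 20 genes did not pass, 3 rose and 3 fell, while library size alone gave 2 higher and 10 lower. SLC25A28, mitoferrin 2, which carries iron into mitochondria, was 2.63-fold higher at 37.8 ± 0.876 CPM with cytokines and 14.2 ± 0.604 CPM with vehicle (edgeR, adjusted p = 4.7e-16). BOLA3, an assembly factor, rose 1.37-fold (edgeR, adjusted p = 0.0014), a call lost with library size alone (0.0598). NFS1, the cysteine desulphurase, and FDXR, the ferredoxin reductase, fell by 0.42 and 0.54 on the log2 scale (edgeR, adjusted p = 0.00012 and 2.9e-05). Among the 9 cytosolic assembly genes there were 2 higher, 1 lower and 6 not past the test, and library size alone gave 2 higher and 5 lower. CIAO2B and CIAO2A, targeting factors, rose 1.41-fold and 1.33-fold (edgeR, adjusted p = 3.9e-07 and 3.9e-06), and the scaffold gene NUBP2 fell by 0.28 on the log2 scale (edgeR, adjusted p = 0.00054).

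**Figure D5:**
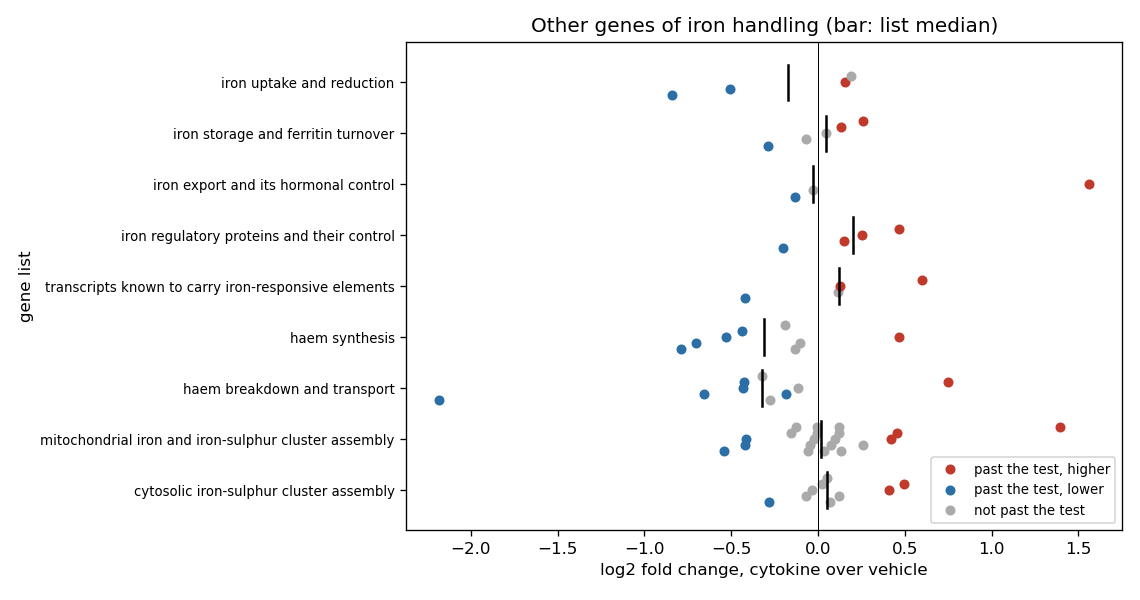
Log2 fold change of cytokine over vehicle for each tested gene of 9 lists of iron handling, the 8 genes above left out, coloured by whether it passed the edgeR test higher, lower or not at all; black bars are list medians. The points furthest out are BMP2 and SLC25A28 on the higher side and ABCG2 on the lower side.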

How the data were processed

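The labels' protocols name RNA extraction with a miRNA kit and directional libraries; cutadapt 2.10, STAR 2.7.5a, HTSeq 0.12.4 and GRCh38 are named per the submitters' processing notes, without roles. The authors deposited 1 table of estimated counts per gene, not normalised, of which 67.3% to 73.5% of those above 0 were within 0.005 of a whole number. The sources used here do not give the strand setting of the counting. It also holds the authors' mean estimated count per group and their own comparison, per the file headers: log2 values for the fold change and the mean CPM, the F score of the test, its p-value and the FDR.

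Estimated counts were rounded, filtered with filterByExpr (17847 genes left), scaled with TMM and tested with edgeR 4.0.16 in R 4.3.3, robust quasi-likelihood, on group alone, cytokine against vehicle, with Benjamini-Hochberg adjustment over all genes. The SE is the size of the log2 change divided by the square root of F. The 95% intervals of log2 changes take a normal quantile of that SE, so they are narrower than the F test itself would give. Columns named NT were taken as vehicle. In simulated data for this comparison (17351 genes), 50 genes each were changed by 0.25, 0.5, 1 and 2 on the log2 scale. Of these, 54%, 78%, 100% and 100% were recovered, with 13 of 179 calls false. Far more genes, 57.1%, were called in the real comparison, so these rates come from an unlike setting and need not hold for it. Replicates of a group differed by 1.34 to 2.32 in chi-square per gene, so none were merged. Elements were searched in GENCODE 29, which lists transcripts on GRCh38.

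The 8 genes and the lists were chosen with earlier results of these data known. The rule named from each list up to 2 higher and 2 lower genes that passed, by size of change, if the group with more had 1 CPM or above, and the 2 genes nearest to TFRC, FTH1 and SLC40A1; SKP1, HAMP and the genes at 0 lay outside it. 1 gene that the rule chose is not reported here. Alternatives were DESeq2 size factors, library size alone, DESeq2 1.42.0, no filter, 1 CPM in 3 libraries, a replicate block, each library left out, a threshold of 0.01, and pseudogene rows added. Adding the pseudogene rows without a symbol in the table and dividing by 1 transcript's length were chosen after seeing the data.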

Additional observations from a re-analysis of the deposited data

How the results depend on the processing

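The number of the 8 genes called higher stayed at 1 under all 15 alternatives, and the number lower ranged from 2 to 5 around 3. It was 5 with library size alone, against 3 in the reported fit, and that setting also gave 9 higher and 37 lower among the other iron genes, against 16 and 19. That setting leaves out the correction for composition. Of the 8 genes, IREB2 and SLC40A1 changed sign with it, to -0.15 and -0.095. SLC39A14 and PCBP4 did so too, to -0.044 and -0.069. With each library left out in turn the number lower was 2 or 3, the log2 difference of FTH1 over FTL ranged from 0.23 to 0.32, that of TFRC over FTH1 from -0.59 to -0.45 and that of SLC40A1 over TFRC from 0.61 to 0.74. No pairing by the shared replicate numbers was detected: same-numbered libraries correlated in their deviations from the group mean at 0.066, 0.024 and -0.075. A weak pairing could go unseen in such deviations, so whether the libraries are paired is not known. With the replicate number as a block 1 gene was higher and 3 lower among the 8, and 5010 higher and 5101 lower among all genes. At a threshold of 0.01 the calls of NCOA4, PCBP4, ACO1 and SKP1 were among those lost, and the other iron genes gave 13 higher and 17 lower. Low counts limit CP and the untested genes.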

Other observations

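One ferritin pseudogene row stood out among the near-empty ones. FTLP14, a processed pseudogene of FTL on chromosome 16 at 68822587 to 68823070 (GRCh38), had 44, 36 and 34.5 counts in the cytokine libraries, against 3, 6.5 and 7 counts in the vehicle libraries. Its log2 fold change was 2.53 with SE 0.29 (edgeR, adjusted p = 1.3e-08), while FTL itself fell. FTLP14 lies between exons of CDH1, the E-cadherin gene, on the same strand, and overlaps 0 of the annotated CDH1 exons. CDH1 stood at 1496 ± 60.9 CPM in cytokine and 310 ± 8.001 CPM in vehicle libraries, a log2 fold change of 2.27 with SE 0.042 (edgeR, adjusted p = 1.1e-27). Whether the reads come from CDH1 introns was not tested. FTLP14 was chosen after its values were seen.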
